A study of Mus musculus with 8 samples.

Results

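The genes described here are 10 CC chemokines of the mouse macrophage, Ccl22, Ccl17, Ccl24, Ccl2, Ccl7, Ccl3, Ccl4, Ccl5, Ccl6 and Ccl9. They were found by symbol in the platform annotation, and each had 1 probe set among the 22206 that were tested. The set was put together around Ccl22, whose signal with IL-4 in WT and KO cells was already known from these arrays, so that its members were chosen by measured values of the same comparisons. The IL-4 and genotype values of Ccl22 are therefore given as a description. Its limma calls enter only the counts on how the results depend on the processing, where they are a description too.

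RNA of RAW264 cells, a mouse macrophage-like line, was hybridized to 8 mouse Clariom S arrays. There were 2 clones with intact Gpr137b (Gpr137b +/+, WT1 and WT2) and 2 clones in which this orphan receptor gene had been knocked out by CRISPR/Cas9 (Gpr137b -/-, KO1 and KO2). Each clone was measured once without and once with IL-4 for 48 h, so that each of the 4 groups holds 2 arrays, and a genotype difference cannot be told apart from a difference between clones. IL-4 was given in a serum-deprived medium with albumin, and the sources do not state the medium of the cells without IL-4, so an effect of IL-4 cannot be told apart from one of the medium.

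CC chemokines are small secreted proteins named for adjacent cysteines, and they attract leukocytes through receptors coupled to G proteins. Macrophages make several of them, and the set made differs with the state of the cell. Ccl22, Ccl17 and Ccl24 are known to be induced by IL-4 through the transcription factor Stat6 in alternatively activated macrophages, while Ccl2, Ccl3, Ccl4, Ccl5 and Ccl7 are known as products of inflammatory activation.

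The signal is given as the log2 of the deposited normalized intensity, and background was taken on each array from its 23 antigenomic controls, as their 95th percentile, between 6.64 and 6.78. Of the 10 chemokines, 9 were above background on at least 1 array and 6 on all 8 arrays, compared with 47.6% and 39.3% of all probe sets. Ccl22 is among the 9 only through arrays with IL-4, whose values chose the set. Of 11 measured macrophage markers, 9 were above background on all 8 arrays, among them Adgre1, Csf1r, Fcgr1, Itgam and Lyz2, while Aif1 was above it on 6 and Mertk on none. Aif1, a macrophage calcium-binding protein gene, passed as lower with IL-4 over all clones (adjusted p = 0.0492 from limma), and both WT arrays with IL-4 were below background, so that no fold is given. Fcgr1, an Fc receptor gene, was lower with IL-4 by 2.06 ± 0.39 on the log2 scale over all clones (SE, adjusted p = 0.154 from limma), and passed there with the clone as a fixed block (adjusted p = 0.00292). None of 8 T cell, 5 B cell, 9 neutrophil and mast cell or 11 stromal and epithelial markers was above background on any array. The Gpr137b probe set read from 10.32 to 11.93 in WT and from 10.00 to 11.12 in KO clones, so that the genotypes overlapped, and no source states whether its probes lie in the edited part of the gene. The WT clones lay farther apart than the KO clones, with 2139 against 359 probe sets at least 2-fold apart without IL-4 and 1338 against 326 with IL-4.

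Both chemokine genes of chromosome 8 are set out first, because the set was put together around Ccl22 and Ccl17 lies close to it, with Cx3cl1 between them. Ccl6, on chromosome 11 with 6 others of the set, is added for its difference between genotypes. The 250 bases before the start of each gene, from the RefSeq table of build GRCm38.p6, which held 5 of the 10 genes, read 5′ to 3′ on the strand of the gene as follows, with motif matches in capitals.
Ccl22, chr8:94745434-94745683, plus strand: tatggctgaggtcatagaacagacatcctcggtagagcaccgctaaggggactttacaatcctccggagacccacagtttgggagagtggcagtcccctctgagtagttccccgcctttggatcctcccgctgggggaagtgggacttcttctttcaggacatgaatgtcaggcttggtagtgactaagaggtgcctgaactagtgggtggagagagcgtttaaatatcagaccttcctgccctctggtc
Ccl17, chr8:94810203-94810452, plus strand: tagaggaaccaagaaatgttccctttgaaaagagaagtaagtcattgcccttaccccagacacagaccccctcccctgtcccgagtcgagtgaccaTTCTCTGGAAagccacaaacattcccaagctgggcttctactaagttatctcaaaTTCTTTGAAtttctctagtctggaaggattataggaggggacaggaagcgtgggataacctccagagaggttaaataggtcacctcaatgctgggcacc
Ccl6, chr11:83593088-83593337, minus strand: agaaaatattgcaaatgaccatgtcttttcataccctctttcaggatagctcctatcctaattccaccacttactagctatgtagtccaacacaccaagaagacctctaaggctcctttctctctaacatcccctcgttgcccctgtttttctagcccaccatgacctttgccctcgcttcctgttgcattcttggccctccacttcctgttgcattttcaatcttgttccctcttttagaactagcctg
The Ccl17 stretch held TTCTCTGGAA, with the 4 bases between TTC and GAA that Stat6 is known to prefer, at positions −154 to −145 from the start, and TTCTTTGAA, with 3 bases between them, at −99 to −91. Both spacings read alike on both strands and were present in 5.89% and 7.04% of 32536 upstream stretches of this length. Neither spacing, nor the NF-kB consensus (7.28% of stretches), TATAAA (12.3%) or TTGCNNAA (9.57%), each searched on both strands, was in the Ccl22 or Ccl6 stretch. A match is a description of the letters and not a binding site.

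Ccl22, a ligand of Ccr4 that attracts regulatory and type 2 helper T cells, was below background on 5 of the 8 arrays. Without IL-4 it read 4.59 (WT1), 4.77 (WT2), 5.43 (KO1) and 4.53 (KO2), all below background. With IL-4 it read 9.90 in WT1 and 9.03 in WT2, against 6.75 in KO1 and 5.13 in KO2. Both WT arrays with IL-4 were thus well above all others, KO1 with IL-4 exceeded the background of its array by 0.01, and KO2 did not reach it. Since the arrays without IL-4 give only an upper limit, Ccl22 was at least 9.28-fold higher with IL-4 in WT1 and at least 5.27-fold in WT2, with each array without IL-4 set at its background. Between genotypes with IL-4, WT cells were at least 6.61-fold higher than KO cells when KO2 was set at its background. Whether fewer cells made Ccl22 or each cell held less of its RNA cannot be told apart in bulk samples. The measured means with IL-4 were 9.47 ± 0.61 in WT and 5.94 ± 1.15 in KO cells (SD, n = 2 clones), of which the KO mean lies below background. These bounds rest on the antigenomic controls, and against the 95th percentile of all negative controls (10.37 to 10.68) Ccl22 was not above background on any array.

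**Figure D1:**
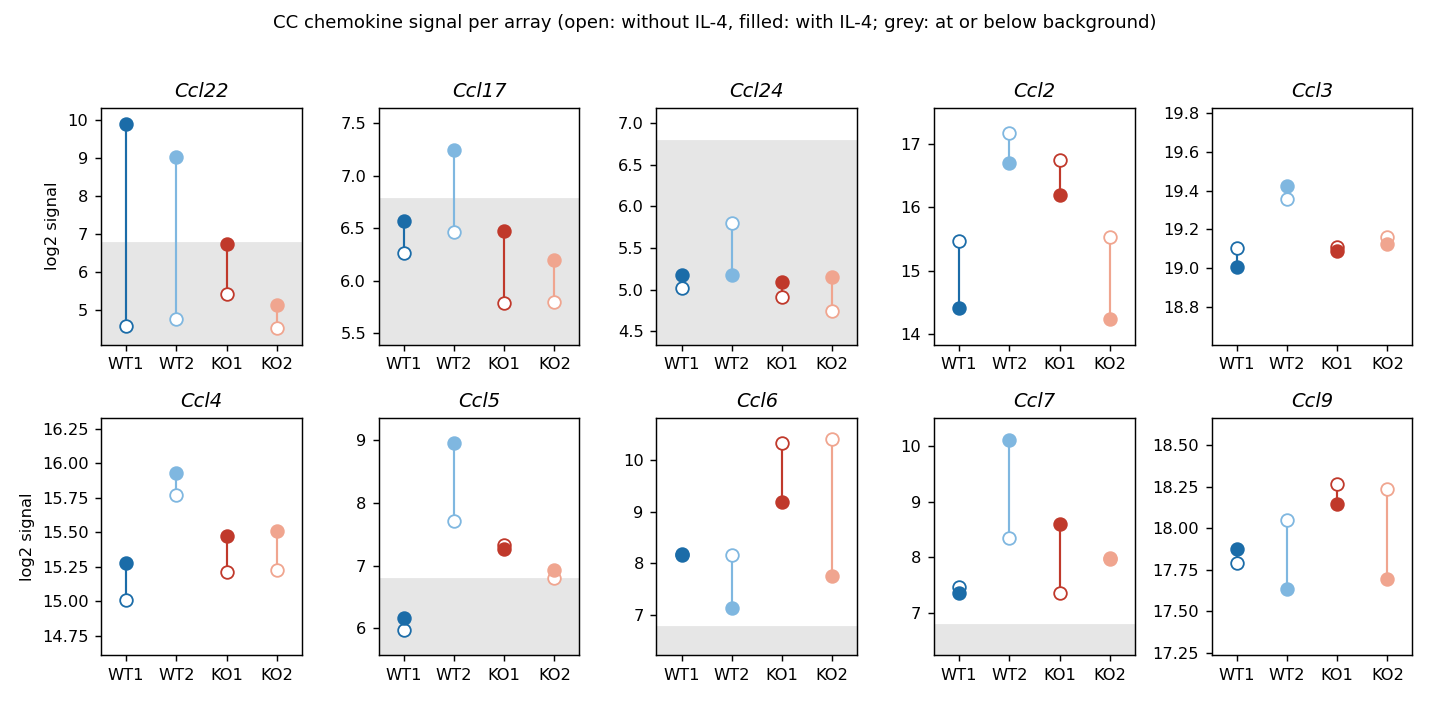
Log2 signal of each of the 10 chemokines (vertical axes, each with its own scale) in the 4 clones (horizontal axes); open points are arrays without and filled points arrays with IL-4, joined within a clone, and the grey area lies at or below the highest background, 6.78. Ccl22 left the grey area with IL-4 in WT1 and WT2, Ccl24 stayed within it on all arrays, and Ccl6 was higher in both KO clones than in both WT clones without IL-4.

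Itgax, an integrin gene used as a dendritic cell marker, was also highest in WT1 with IL-4, at 10.64, and the other arrays with IL-4 gave 7.19 (WT2), 6.86 (KO1) and 7.01 (KO2), against 5.33 to 5.51 without. Of 12 dendritic cell markers, Itgax and Ccr7 were above background on 2 or more arrays. The other 10, among them the defining genes Flt3, Zbtb46, Clec9a and Xcr1, were below it on all 8 arrays. The summed signal of the 12 markers ranged from 8.81 to 9.14 in WT and from 8.81 to 8.95 in KO cells without IL-4, and from 9.17 to 10.97 in WT and from 9.08 to 9.11 in KO cells with IL-4, as log2 values. The sums add linear signals and include the 10 markers below background. The highest sum, 10.97, is that of WT1 with IL-4 and is mostly Itgax, which alone read 10.64 there. The part of these markers in the Ccl22 signal was not tested.

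Of 3147 named probe sets that were above background on 2 or more arrays and varied by at least 1 on the log2 scale, the 5 most like Ccl22 over the 8 arrays were Rnf180, Reep3, Atp6v0a1, Car4 and Socs3. Their Pearson correlations with Ccl22 were 0.966, 0.943, 0.935, 0.926 and 0.918, given as a description over 8 arrays of 4 clones that share their clone and array. Ccl22 was below background on 5 of these arrays. Rnf180 met the filter only through the 2 WT arrays with IL-4, on which Ccl22 was high. Car4 met it only through these 2 and KO1 with IL-4, the same arrays on which Ccl22 was above background. The order of likeness thus rests in part on values below background and on a filter passed where Ccl22 was high. Rnf180, an E3 ubiquitin ligase gene, was above background on the same arrays as Ccl22 in WT cells, at 7.21 in WT1 and 7.09 in WT2 with IL-4. Socs3, a feedback inhibitor of cytokine signalling, read 7.43 and 7.64 on these arrays and 6.31 to 6.88 on all others. Atp6v0a1, a subunit of the proton pump of lysosomes, ranged between 15.52 and 16.75. All 5 had a smaller range of measured values than Ccl22.

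**Figure D2:**
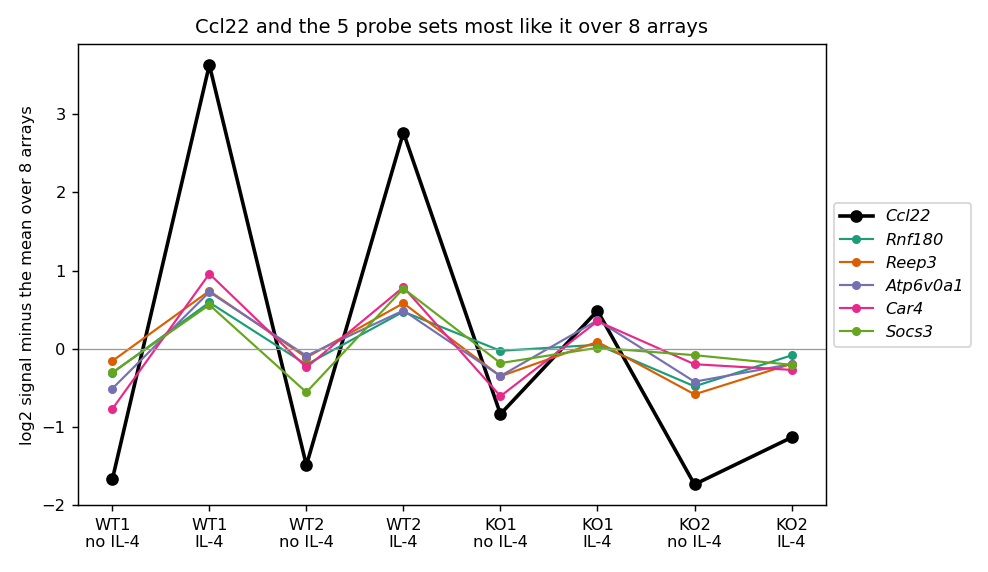
Log2 signal minus the mean of the same probe set over the 8 arrays (vertical axis) for Ccl22 and the 5 probe sets that correlated best with it (lines), in each clone without and with IL-4 (horizontal axis). All 6 lines peak in WT1 and WT2 with IL-4, with Pearson correlations of 0.918 to 0.966 to Ccl22.

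Ccl17, the other known ligand of Ccr4, was near or below background on all arrays. Without IL-4 it read 6.26 (WT1), 6.47 (WT2), 5.79 (KO1) and 5.80 (KO2). With IL-4 it read 6.57, 7.25, 6.47 and 6.20 in the same order, so that WT2 with IL-4 was the array where it exceeded its background, by 0.55. In WT2 it was at least 1.53-fold higher with IL-4. Ccl17 was higher with IL-4 in all 4 clones, by 0.30 to 0.78 on the log2 scale, mostly among values that lie below background. Over all 4 clones the log2 difference was 0.54 ± 0.19 (SE) and did not pass (adjusted p = 0.843 from limma). Ccl24, known as eotaxin-2 and a ligand of Ccr3 on eosinophils, stayed between 4.74 and 5.80, below background on all 8 arrays, and no fold is given for it.

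Ccl2, which recruits monocytes through Ccr2, was far above background on every array, and the clones of each genotype lay far apart. Without IL-4 it read 15.47 (WT1), 17.17 (WT2), 16.75 (KO1) and 15.53 (KO2). With IL-4 it read 14.41, 16.69, 16.19 and 14.23. WT2 and KO1 were thus the high clones and WT1 and KO2 the low ones under both treatments, and the clones of each genotype differed by 1.22 to 2.28 on the log2 scale. WT2 was at least 2-fold above WT1 in both treatments for Ccl2 and Ccl5, 2 of the 10 chemokines, compared with 1.02% of all probe sets, and KO2 was at least 2-fold below KO1 for Ccl2, compared with 0.117%. WT2 was above WT1 in both treatments for 7 of the 10 chemokines, all but Ccl22, Ccl6 and Ccl9, compared with 26.7% of all probe sets. Among the 7, Ccl24 was below background on all arrays, with a log2 difference of 0.000373 with IL-4. Ccl17 was above background only in WT2 with IL-4. Ccl2 was the 1 chemokine of the set that was lower with IL-4 in all 4 clones, a direction found in 8.44% of all probe sets. The ratio of the signal without IL-4 to that with it was 2.08 (WT1), 1.39 (WT2), 1.47 (KO1) and 2.46 (KO2). The log2 difference over all clones was −0.85 ± 0.64 (SE, adjusted p = 1 from limma), and its adjusted p was 0.190 with the clone as a fixed block, so that the difference passed in neither fit. KO minus WT was −0.18 without IL-4 (95% interval −2.26 to 1.90) and −0.34 with IL-4 (−2.42 to 1.74), and these intervals hold differences of over 3-fold in either direction.

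Ccl7, another Ccr2 ligand and the neighbour of Ccl2 on chromosome 11, read 7.47 (WT1), 8.34 (WT2), 7.36 (KO1) and 7.97 (KO2) without IL-4. The values with IL-4 were 7.36, 10.11, 8.60 and 7.99. It was 3.40-fold higher with IL-4 in WT2 and 2.37-fold in KO1, the clones in which Ccl2 was high, and nearly the same without and with IL-4 in WT1 and KO2. The groups overlapped, and neither the difference in WT cells (0.83 ± 0.76, SE) nor that in KO cells (0.63 ± 0.76, SE) passed (adjusted p = 1 from limma for both). Ccl5, known as RANTES and a ligand of Ccr1, was below background in WT1 at 5.98 without and 6.17 with IL-4. It read 7.71 and 8.96 in WT2, 7.33 and 7.27 in KO1, and 6.80 and 6.93 in KO2. WT2 with IL-4 was the highest array for both Ccl5 and Ccl7, and their Pearson correlation over the 8 arrays was 0.873, a description over arrays that share clones.

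**Figure D3:**
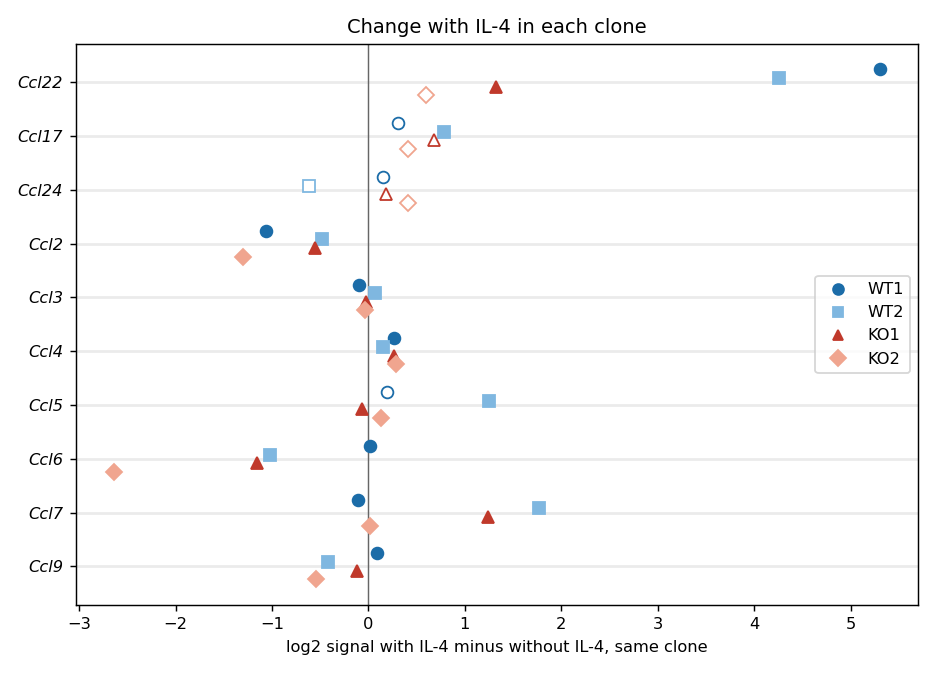
Change of the log2 signal with IL-4 (horizontal axis) for each of the 10 chemokines (vertical axis), with 1 point per clone; hollow points mark a clone in which both arrays were below background. Ccl4 lies between 0.15 and 0.28 in all clones and Ccl2 between −1.30 and −0.48, while Ccl5, Ccl6 and Ccl7 differ among clones of the same genotype.

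Ccl3 and Ccl4, known as macrophage inflammatory proteins, were bright in all clones and varied little. Ccl3 read between 19.01 and 19.42 over the 8 arrays. It was the brightest of all probe sets on 5 arrays and was exceeded by at most 3 on the others, so that it lay at the top of the measured scale, and whether this limits its differences was not tested. Its log2 difference with IL-4 was −0.01 in WT (95% interval −0.53 to 0.50) and −0.03 in KO cells (−0.54 to 0.48). Ccl4 read 15.01 (WT1), 15.77 (WT2), 15.21 (KO1) and 15.23 (KO2) without IL-4, and 15.28, 15.93, 15.47 and 15.51 with IL-4. It was higher with IL-4 in each clone, by 1.11- to 1.22-fold, with WT2 the highest clone under both treatments. A rise in all 4 clones was found in 7.93% of all probe sets. Ccl17 was also higher in all 4 clones, mostly among values below background. So was Ccl22, whose values chose the set and which is not counted here. The Ccl4 difference over all clones was 0.24 ± 0.22 on the log2 scale (SE, adjusted p = 1 from limma) and did not pass.

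Ccl6 and Ccl9, Ccr1 ligands known from rodents and neighbours on chromosome 11, had their highest signals in KO cells without IL-4. Ccl6 read 8.15 in WT1 and 8.17 in WT2 against 10.33 in KO1 and 10.40 in KO2 without IL-4, with both clones of a genotype close together. With IL-4 it read 8.18 (WT1), 7.14 (WT2), 9.17 (KO1) and 7.76 (KO2), and the genotypes overlapped. Without IL-4, KO cells were 4.61-fold higher by the means, a log2 difference of 2.20 ± 0.47 (SE, 95% interval 1.14 to 3.27), which did not pass over all probe sets (adjusted p = 0.681 from limma). With IL-4 the log2 difference was 0.81 ± 0.47 (SE, adjusted p = 1 from limma). The ratio of the signal without IL-4 to that with it was 6.22 in KO2, 2.22 in KO1 and 2.03 in WT2, while WT1 gave nearly the same signal without and with IL-4. In KO cells the log2 difference with IL-4 was −1.89 ± 0.47 (SE, adjusted p = 0.911 from limma), and in WT cells −0.50 ± 0.47 (SE, adjusted p = 1 from limma). The difference of these effects was −1.39 (95% interval −2.90 to 0.11, adjusted p = 1 from limma), which does not show that they were equal.

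Ccl9 was bright on all arrays, at 17.79 (WT1), 18.05 (WT2), 18.26 (KO1) and 18.23 (KO2) without IL-4, and 17.87, 17.64, 18.15 and 17.70 with IL-4. It followed Ccl6 over the 8 arrays (Pearson correlation 0.924, a description over arrays that share clones), with much smaller steps. Whether the probes of these related genes share part of their signal was not tested. Ccl6 and Ccl9 were the 2 of the 10 chemokines for which both KO clones were above both WT clones without IL-4, a pattern found in 14.1% of all probe sets. With IL-4 none of the 10 had both KO clones above both WT clones (17.9% of all probe sets). Apart from Ccl22, whose values chose the set, Ccl17 and Ccl24 had both KO clones below both WT clones with IL-4 (15.3%). The same 2 had this order without IL-4 as well (16.3%), and the measured KO minus WT difference of Ccl17 was −0.57 in each treatment. Ccl24 was below background throughout, and Ccl17 was above it only in WT2 with IL-4. The Ccl9 difference was 0.33 ± 0.24 on the log2 scale without IL-4 (SE, adjusted p = 0.993 from limma).

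**Figure D4:**
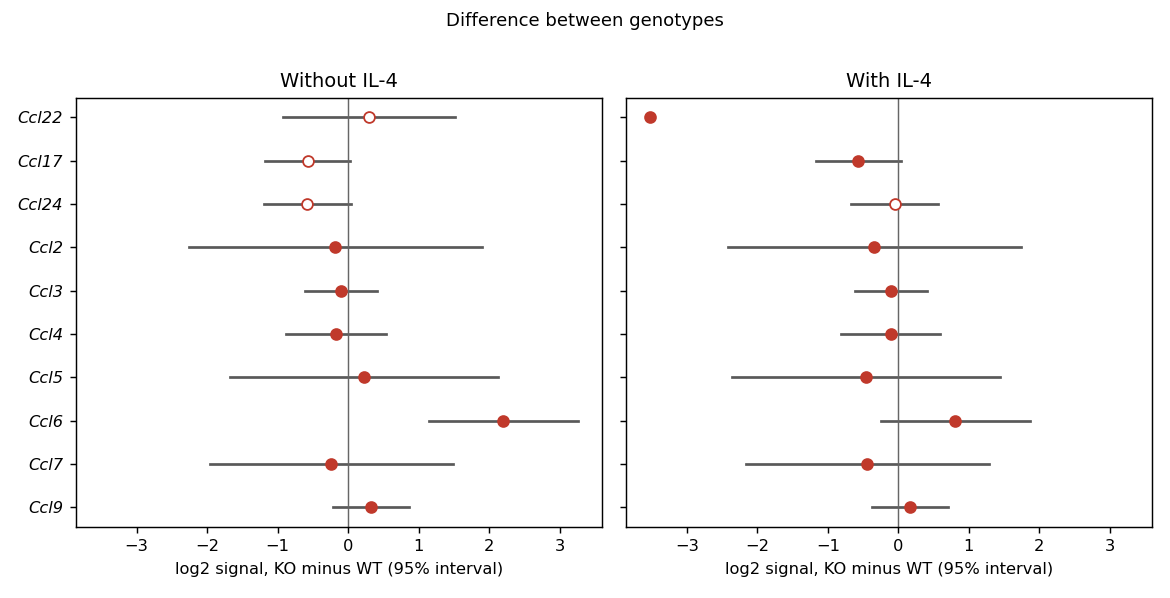
KO minus WT difference of the log2 signal (horizontal axes) of the 10 chemokines (vertical axis) without IL-4 (left) and with IL-4 (right), as points with the 95% interval from limma; hollow points mark genes below background in both genotypes, and Ccl22 with IL-4 is shown as the difference of measured means, with KO below background, and without an interval. Ccl6 without IL-4 (2.20) is the 1 interval that does not reach 0, and its adjusted p over all probe sets was 0.681.

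Apart from Ccl22, whose values chose the set and which is therefore not counted here, none of the other 9 chemokines passed the threshold of 0.05 on the adjusted p in any of the 6 comparisons by limma. Of all probe sets, 0.036% passed for the IL-4 effect in WT cells, 0.0315% in KO cells, 0.167% over all 4 clones and 0% for the difference of the IL-4 effects, while 0.018% passed between the genotypes without IL-4 and 0.0315% with it. With the clone as a fixed block none of the 9 passed either, compared with 0.158% of all probe sets in WT cells, 0.113% in KO cells and 0.576% over all clones. At an unadjusted p under 0.05 in the fit of group means there were none of the 9 in WT cells (3.85% of all probe sets), 1 in KO cells (Ccl6, 2.77%), 2 over all clones (Ccl6 and Ccl17, 4.61%) and none for the difference (1.52%). Between the genotypes there was 1 without IL-4 (Ccl6, 4.41%) and none with it (3.53%). With the clone as a fixed block, Ccl2, Ccl5 and Ccl17 were below 0.05 in WT cells (unadjusted p = 0.0228, 0.0371 and 0.0491 from limma). Ccl2, Ccl6 and Ccl17 were below it in KO cells (0.00955, 0.00149 and 0.0491) and over all clones (0.00245, 0.00283 and 0.0116). For the difference it was Ccl6 (0.0372). The share of all probe sets below 0.05 in that fit is not given. The median log2 difference of all 10 genes with IL-4 was 0.10 in WT and 0.15 in KO cells, compared with −0.01 and 0.000814 over all probe sets. These 2 medians include Ccl22 and are a description. For the other 9 the middle value was −0.01 in WT cells (that of Ccl3) and 0.03 in KO cells (that of Ccl5). The precision is limited by the 2 clones of each genotype.

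The receptors of these ligands were mostly below background. Of 14 measured receptor genes, 4 were above background on any array, and Ccr4, the receptor of Ccl22 and Ccl17, and Ccr3, the receptor of Ccl24, were below it on all 8. Ccr1, the receptor of Ccl3, Ccl5, Ccl6 and Ccl9, was far above background on all arrays, at 12.90 (WT1), 13.52 (WT2), 12.98 (KO1) and 12.94 (KO2) without IL-4. The signals with IL-4 were 11.65, 12.83, 12.48 and 11.70, lower in all 4 clones, but the log2 difference over all clones of −0.92 did not pass (adjusted p = 0.746 from limma). Ccr2, the receptor of Ccl2 and Ccl7, read between 7.62 and 8.62 with no common direction. Ccr7, a homing receptor, read between 7.15 and 7.78. Ccrl2, an atypical receptor, was above background in WT2 alone, at 8.38 without and 8.21 with IL-4.

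Among 11 other CC chemokines, Ccl25 and Ccl21a were above background on 2 or more arrays, and 6 were below it on all. Among 17 chemokines of the other classes, Cxcl2, Cxcl3, Cxcl14 and Cxcl16 were above background on 2 or more arrays, and the other 13, with the interferon-induced Cxcl9, Cxcl10 and Cxcl11 among them, were below it on all 8. Cxcl2, a neutrophil attractant, was lower with IL-4 in each clone, most of all in WT1, where it read 14.58 without and 11.20 with IL-4, against 16.16 and 15.81 in WT2, 14.02 and 13.07 in KO1 and 15.51 and 14.98 in KO2. Cxcl3, its close relative, read between 8.71 and 9.99. Cxcl16, a membrane-bound chemokine and scavenger receptor, read 7.57 and 8.39 in WT1 and WT2 and 7.06 and 7.09 in KO1 and KO2 without IL-4, and 8.67 and 8.17 against 7.21 and 7.34 with IL-4. Both KO clones were thus below both WT clones in each treatment, a pattern of 16.3% of all probe sets without and of 15.3% with the cytokine, and the log2 differences of −0.91 and −1.15 did not pass (adjusted p = 0.993 and 0.994 from limma). Cxcl14 was highest in WT1, at 8.41 and 8.79, and between 6.28 and 7.06 elsewhere. None of the 42 receptors and other chemokines passed in any of the 6 comparisons by limma, and none in the 4 comparisons that the clone as a fixed block allows. At an unadjusted p under 0.05 in the fit of group means there were none of the 11 other CC chemokines in any comparison. There were 1 or 2 of the 14 receptors in each, and at most 2 of the 17 chemokines of the other classes. Of all probe sets, 1.52% to 4.61% were below 0.05 in these comparisons.

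**Figure D5:**
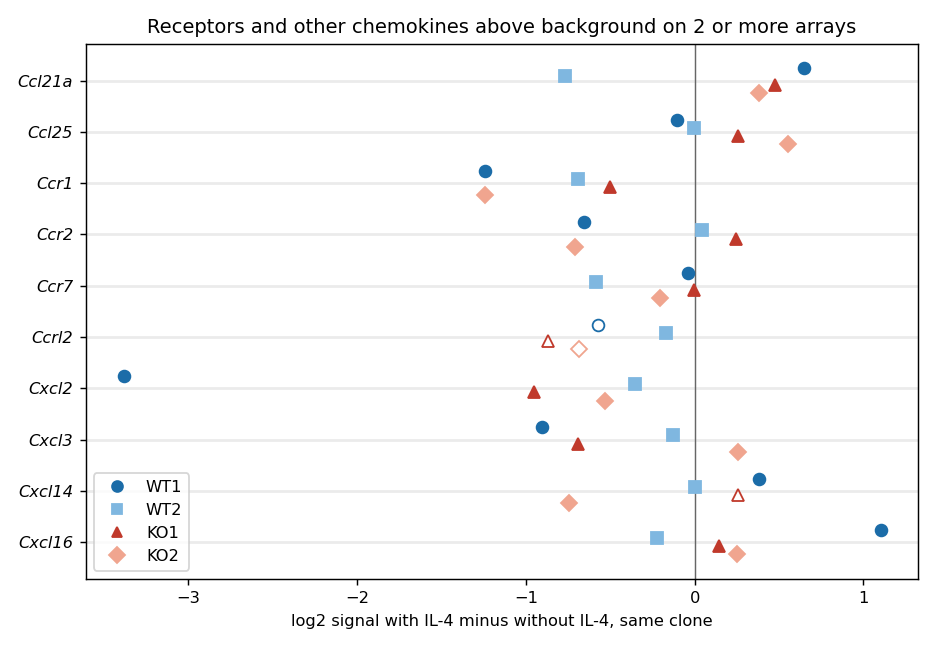
Change of the log2 signal with IL-4 (horizontal axis) in each clone (points) for the receptors and other chemokines above background on 2 or more arrays (vertical axis); hollow points mark a clone in which both arrays were below background. Ccr1, Ccr7, Ccrl2 and Cxcl2 lie below 0 in all 4 clones, Ccr7 by as little as 0.003 in KO1, and the widest spread among clones is that of Cxcl2, from −3.38 in WT1 to −0.35 in WT2.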

How the data were processed

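The deposited values were linear intensities that the authors had normalized by SST-RMA (RMA in the submitters' processing notes) with the array maker's analysis console. No genome build is named. Their log2 was taken, and 28846 rows less 6640 control rows left 22206 probe sets, of which 19572 have a gene symbol. In limma 3.58.1 (R 4.3.3) a mean was fitted to each group over all 8 arrays, and 6 comparisons were made, with Benjamini-Hochberg adjustment over all probe sets and a threshold of 0.05. The procedure was tested on simulated data. The labels give replicate numbers only, and the arrays of a clone are paired by the clone names that the authors list for each sample. The deviations of a clone's 2 arrays had a correlation over all probe sets of 0.354 for WT and of 0.161 for KO. Where a gene was below background in the dimmer group, a fold is a lower bound against the background. Named were the 10 members, receptors and other chemokines above background on 2 or more arrays, list genes that passed and the 5 probe sets most like Ccl22. The members and lists were chosen with earlier results of these data known. Whether the clones were cultured as separate replicates of IL-4 treatment is not stated, so p-values of the fit of group means measure the spread between clones. With the clone as a fixed block they measure the spread of the IL-4 change between clones of the same genotype. Alternatives were quantile normalization, a filter on the dimmest 40% of probe sets, another variance moderation, an offset of 50, a fixed or a random block for the clone, a rule of fold change and unadjusted p, another background and leaving out each clone.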

Additional observations from a re-analysis of the deposited data

Results flagged for a closer look

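Ccl25, a chemokine of the thymus and gut, was lower with IL-4 in both WT clones, by 0.11 in WT1 and 0.001 in WT2 on the log2 scale, and higher in both KO clones, by 0.25 in KO1 and 0.55 in KO2. The IL-4 effect in KO minus that in WT cells was 0.46 on the log2 scale and did not pass (adjusted p = 1 from limma). All 8 arrays gave Ccl25 above background, between 7.83 and 8.38. No group holds enough arrays for a test of single outlying arrays.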

How the results depend on the processing

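With each clone left out, single arrays remain in that genotype's groups and are assumed to vary like the others. The counts of passing chemokines include Ccl22, whose values chose the set, and are a description for it. The count of the 10 chemokines that passed for IL-4 in WT cells, 1 in the reported fit, was 0 to 0 with any 1 clone left out, 0 with an offset of 50 and 0 when the dimmest 40% of probe sets were left out. Over all clones it was 0 to 1 with any 1 clone left out, with Ccl22 counted when WT2 was left out, and 0 with the offset. The measured log2 difference of Ccl22 with IL-4 stayed between 4.26 and 5.31 in WT cells and between 2.61 and 3.13 over all clones when a clone was left out. Calling genes by an unadjusted p under 0.05 and a 2-fold change gave 1 in KO cells (Ccl6), 2 over all clones (Ccl22 and Ccl6), 1 for the difference of the IL-4 effects (Ccl22), and 1 between genotypes without (Ccl6) and 1 with IL-4 (Ccl22). Of all 22206 probe sets this rule called 159 in KO cells, 181 over all clones and 110 for the difference. Between genotypes it called 172 without and 176 with IL-4. With the clone as a fixed replicate block the counts for IL-4 were 1 in WT cells, 0 in KO cells, 1 over all clones and 0 for the difference, as in the fit without it, and the block changed no other call of the 10. Against the 95th percentile of all negative controls, 4 of the 10 (Ccl2, Ccl3, Ccl4 and Ccl9) were above background on any array in place of 9, and Ccl22 was not, so that its fold bounds hold only for the antigenomic background. The share of all probe sets above this other background is not given. The log2 difference of Ccl24 over all clones, 0.03, was −0.000794 with the offset. With any 1 clone left out, the IL-4 difference in WT cells ranged from −0.62 to 0.16 for Ccl24, −0.10 to 0.067 for Ccl3, −1.02 to 0.022 for Ccl6, −0.11 to 1.76 for Ccl7 and −0.42 to 0.085 for Ccl9. In KO cells it ranged from −0.067 to 0.13 for Ccl5, and over all clones from −0.16 to 0.22 for Ccl24 and −0.062 to 0.019 for Ccl3. The difference of the IL-4 effects ranged from −0.24 to 0.24 for Ccl17, −0.53 to 0.21 for Ccl2, −0.10 to 0.067 for Ccl3, −1.13 to 0.74 for Ccl7 and −0.41 to 0.088 for Ccl9. KO minus WT without IL-4 ranged from −0.15 to 0.75 for Ccl22, −1.04 to 0.67 for Ccl2, −0.22 to 0.029 for Ccl3, −0.55 to 0.21 for Ccl4, −0.64 to 1.09 for Ccl5 and −0.68 to 0.20 for Ccl7. With IL-4 it ranged from −1.48 to 0.80 for Ccl2, −0.32 to 0.10 for Ccl3, −0.43 to 0.21 for Ccl4, −1.86 to 0.93 for Ccl5, −1.81 to 0.94 for Ccl7 and −0.059 to 0.39 for Ccl9. The cause of these shifts was not tested. Of the values of single chemokines under the alternatives, 584 kept their direction and their side of the threshold, 35 changed direction, 10 no longer passed and 5 newly passed. All lost calls were those of Ccl22. All new calls, of Ccl6 and Ccl22, came from the rule of fold change and unadjusted p, so that none newly passed on the adjusted p. The number of arrays limits the precision, and Ccl22, Ccl17, Ccl24 and Ccl5 were at or near background on several arrays.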

Other observations

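Of 26 measured genes of a list of regulators of chemokine genes, none passed in any of the 6 comparisons by limma. At an unadjusted p under 0.05 in the fit of group means there were 5 in WT cells (3.85% of all probe sets), 4 in KO cells (2.77%) and 7 over all clones (4.61%). For the difference of the IL-4 effects there were 0 (1.52%), and between the genotypes 1 without IL-4 (4.41%) and 4 with it (3.53%). With the clone as a fixed block Egr2 (adjusted p = 0.0375) and Fos (adjusted p = 0.0472) passed as higher with IL-4 over all 4 clones, where 0.576% of all probe sets did. Egr2, a zinc finger transcription factor gene, rose in this fit by 1.87 on the log2 scale, from 10.48 to 12.31 in WT1, from 12.14 to 13.69 in WT2, from 8.47 to 11.38 in KO1 and from 10.05 to 11.24 in KO2. Fos, part of the AP-1 complex, read 7.26 without and 8.78 with IL-4 in WT1, 6.26 and 7.34 in WT2, 6.72 and 7.38 in KO1, and 6.40 and 7.38 in KO2, with WT2, KO1 and KO2 without IL-4 below background, so that no fold is given over the clones. Both genes were named after their values were seen. Stat6 itself read between 12.31 and 13.07 on all 8 arrays, and Il4ra, which encodes the receptor chain for IL-4, between 6.99 and 7.93.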
